A study of Mus musculus with 7 samples.

Results

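The RNA contacts of endogenous DENR in mouse fibroblasts were read from the called crosslink sites of 2 non-transfected (NT) iCLIP libraries and compared with those of 2 IgG libraries, 4 of the 7 libraries in the series. NIH3T3 cells, an immortalised embryonic fibroblast line, were irradiated with UV-C, the RNA was trimmed with RNase I, and crosslinked RNA was recovered by immunoprecipitation of DENR with a specific antibody (NT replicates 1 and 2, here NT1 and NT2) or with IgG as the control (IgG1 and IgG2). The labels give no transfection for the IgG libraries and do not say whether same-numbered libraries share a culture, so p-values measure only the spread between these libraries. Cells overexpressing DENR supplied the other 3 libraries, which were not used. A site is 1 nucleotide on 1 strand that passed a false discovery rate of 0.05 within its own library, and its score is the number the deposited list gives it. The NT lists held 4324 and 7185 sites and the IgG lists 19 and 234, which gave 8919 different positions in any of the 4 lists. Of the 8892 positions in either NT list, 2422 (27.2%) stood in both NT lists and in neither IgG list, and these are the members described here. Only called sites were deposited, so a position missing from a list was not called there, which is not the same as having no crosslink. Library depth is unknown.

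DENR forms a heterodimer with MCTS1 that works on the small (40S) ribosomal subunit, where it helps to remove deacylated tRNA after termination and to start translation again downstream of short upstream open reading frames. The RNA core of that subunit is 18S rRNA. In iCLIP the reverse transcriptase tends to stop at the peptide left on the crosslinked nucleotide, so the cDNA start places the contact to the base.

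The sites that carried the comparison with IgG on 18S rRNA are shown first, as windows of 29 bases in the GRCm38 (mm10) sequence of the GENCODE M21 transcripts, written 5′ to 3′ with T for U. The first 5 windows hold NT sites that neither IgG list contained, and their capitals mark the 10 leading 18S members that fall in each window. They are not free of IgG sites. Among their lower-case bases IgG2 listed nucleotides 1085, 1086, 1088, 1138, 1504, 1511 and 1513. Of these, 1138 and 1513 adjoin the leading members 1139 and 1514. The last 2 windows hold the 2 highest IgG2 sites of 18S, and their capitals mark every nucleotide listed in an IgG library.
18S nt 1111 to 1139, chr17:39847463-39847491, plus strand: ggcggcgtTatTCCCatgacccgccgggC
18S nt 1061 to 1089, chr17:39847413-39847441, plus strand: gatcagataccgttGtagttccaaccata
18S nt 1241 to 1269, chr17:39847593-39847621, plus strand: cggcttaatttgacTcaacacgggaaacc
18S nt 1479 to 1507, chr17:39847831-39847859, plus strand: cgagattgagcaatAacaggtctgtgatg
18S nt 1500 to 1528, chr17:39847852-39847880, plus strand: ctgtgatgcccttaGatgtccggggctgc
18S nt 815 to 843, chr17:39847167-39847195, plus strand: aaaaAattagagtgTTcaaAgcaggcccg
18S nt 1146 to 1174, chr17:39847498-39847526, plus strand: cgggaaACcaaaGTCTtTGGgttcCgggg

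Classes annotated as short structured RNAs had no site in either IgG list. The windows printed for them hold the leading members of the snRNA class, in U6-like and U12 spliceosomal RNAs, and of the other small RNAs. The capitals mark members, positions in both NT lists.
Gm23924 (U6-like), chr6:74451810-74451838, minus strand: gcaaggatgacacgCaaaattcgtgaagc
Gm22628 (U6-like), chr13:16041118-16041146, minus strand: gcttcggcagcAcaTaTattaaaattgga
Rnu12 (U12), chr15:83149689-83149717, plus strand: cccgagtcctcactGctTatgtgagaaga
Gm23388, chr8:85112024-85112052, minus strand: cggTtcgGagagccGTtcgtcttgggaaa
Mir6236, chr9:110281306-110281334, plus strand: aactagccctGAAAAtGGAtgGCGctgGa

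The lists differed most in length. Summed scores were 16429 in NT1, 68338 in NT2, 21 in IgG1 and 434 in IgG2, and the mean score per site was 3.80, 9.51, 1.11 and 1.85. On the log10 scale the number of sites averaged 3.75 ± 0.16 in NT and 1.82 ± 0.77 in IgG (SD, n = 2 each), a difference of 1.92. Both NT lists were longer than both IgG lists, and the two-sided exact permutation test gave p = 0.333, the smallest that 2 libraries against 2 can give (0.467 after Benjamini-Hochberg adjustment over 14 tests). No comparison of the 2 groups could therefore pass a threshold of 0.05. Within each group the libraries also stood apart, since NT2 held more sites than NT1 and IgG1 held only 19.

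Every site was placed in 1 RNA class by its overlap with annotated features. The classes were 18S rRNA, other rRNA (pre-rRNA spacers, 5.8S, 5S and the mitochondrial rRNAs), tRNA, spliceosomal snRNA, other small RNA, the coding sequence (CDS), 5′ UTR and 3′ UTR of mRNAs, other exons, introns, and intergenic sequence. Introns and intergenic sequence held most sites in all 4 libraries. These shares count called positions and not reads, and the paper placed most of its iCLIP reads on rRNA, chiefly 18S. No copy of the long rRNA of the large ribosomal subunit was among the classes, so sites from it would be counted elsewhere. Intergenic sequence took 47.0% of NT1 sites, 40.5% of NT2 sites, 36.8% of IgG1 sites and 37.6% of IgG2 sites. For introns the shares were 32.7%, 29.6%, 36.8% and 42.7% in the same order. Both IgG shares lay above both NT shares for introns and below them for intergenic sequence, with group means differing by -8.61 and 6.50 percentage points (exact permutation p = 0.333, adjusted 0.467, for each). Both directions depended on the counting, since the difference became 1.88 for introns without dense windows, and -9.84 and -7.10 for intergenic sequence with sites merged within 15 nt and in lists of equal length. The 18S rRNA took 8.21% of NT1, 10.5% of NT2, 26.3% of IgG1 and 9.83% of IgG2 sites. That IgG1 share rested on 5 of 19 sites (95% exact Clopper-Pearson interval 9.15 to 51.2%), and the IgG2 share lay between the NT shares (exact permutation p = 0.667, adjusted 0.778). A higher share of 18S sites in NT than in IgG was therefore not seen when each site was counted once. When each library was cut to at most 234 sites by score, 18S took 22.2% and 40.6% of the NT lists, and the 2 groups still overlapped.

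**Figure D1:**
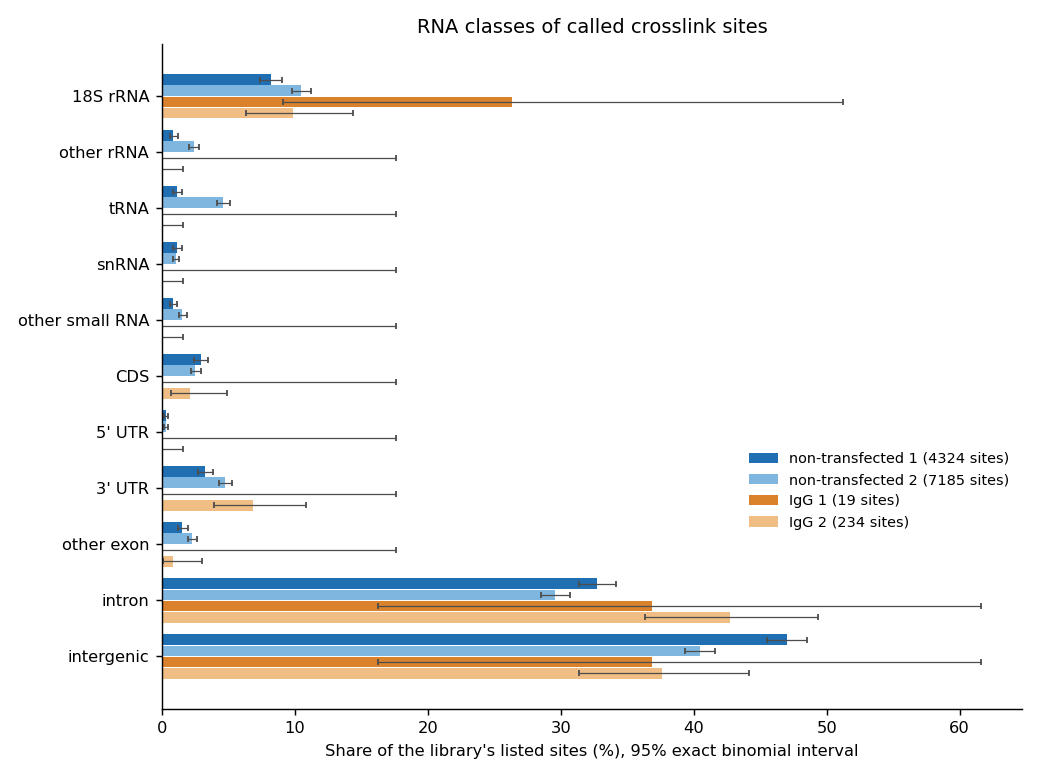
Share of each library's called sites in each RNA class (horizontal axis, %), with 95% exact binomial intervals that cover counting error only. The small non-coding RNA classes have bars in the NT libraries (1.13% and 4.59% of sites for tRNA) and none in the IgG libraries, whose intervals reach 1.56% in IgG2 and 17.6% in IgG1.

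Other rRNA, tRNA, snRNA and other small RNA were listed in NT alone. Together they held 174 NT1 sites and 690 NT2 sites and no IgG site. Not all of these RNAs are short. Within other rRNA, the mitochondrial rRNA mt-Rnr2 (1582 nucleotides) held 7 NT1 and 65 NT2 sites and the rest of the pre-rRNA copy 8 and 39. Of the 779 positions of these classes in either NT list, 85 (10.9%) were members, against 27.2% over all classes. Of the 85, 12 lay in Mir6236, whose class is uncertain for a reason given below. The shares in NT1 and NT2 were 0.879% and 2.42% for other rRNA, 1.13% and 4.59% for tRNA, 1.16% and 1.04% for snRNA, and 0.856% and 1.54% for other small RNA (exact permutation p = 0.333, adjusted 0.467, for each class against IgG). Among the 246 positions of the 2 IgG lists together, a count of 0 leaves shares of up to 1.49% possible for each class and for these classes together. Most of these NT sites had low scores. When the NT lists were cut by score to the 234 sites of the IgG2 list, tRNA kept 2 sites in NT1 and 0 in NT2, other small RNA kept 2 and 0, snRNA kept 0 and 0, and other rRNA kept 1 and 2. This cut kept only scores of at least 12 in NT1 and 48 in NT2, so its rule removed low-scoring classes. It therefore cannot say whether their absence from IgG differed from the NT shares. Together these classes took 4.02% and 9.60% of all NT1 and NT2 sites, 2.87% and 3.66% of the score, and 0% of either in IgG2. Neighbouring sites are not independent, so these shares are a description and not a test.

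Regions of mRNAs held a small part of the sites in both groups. CDS took 2.94%, 2.53%, 0% and 2.14% of sites in NT1, NT2, IgG1 and IgG2, so that both NT shares were the higher ones (exact permutation p = 0.333, adjusted 0.467). In 3′ UTRs, which took 3.26%, 4.75%, 0% and 6.84%, the groups overlapped (exact permutation p = 1). For 5′ UTRs, which in upstream open reading frame mRNAs carry the short frames, the NT shares were 0.278% and 0.292%, from 12 and 21 sites, against 0 in both IgG lists (exact permutation p = 0.333, adjusted 0.467). No listed site lay in a mitochondrial mRNA.

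How often the NT libraries named the same nucleotide depended on the class. Of all NT1 sites, 60.5% were also in NT2, which left 2617 positions in both NT lists (29.4% of the positions in either). For 18S rRNA the recurrence was 339 of 355 NT1 sites (95.5%), and the 752 NT2 sites contained nearly the whole NT1 profile. In 3′ UTRs 64.5% of NT1 sites recurred, but all 91 shared positions were in Lars2, and of the 39 NT1 sites in other 3′ UTRs 0 were found in NT2. Recurrence was 61.2% for tRNA, 60.5% for other rRNA and 57.6% for introns. Fewer NT1 sites were found again in spliceosomal snRNA (16 of 50), 5′ UTRs (2 of 12) and CDS (14 of 127). Counted from the longer NT2 list, recurrence was 9.09% for tRNA, 13.2% for other rRNA and 38.4% for introns. For 18S rRNA it was 45.1% and for all NT2 sites 36.4%. Across the 2617 positions, NT1 and NT2 scores had a Spearman correlation of 0.53, a description only, since neighbouring nucleotides are not independent.

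Nearly every IgG site was an NT site. All 19 IgG1 sites were in an NT list and 17 were in both, and of the 234 IgG2 sites 207 (88.5%) were in an NT list and 185 (79.1%) in both. The IgG lists shared 7 positions with each other. The 27 IgG2 sites in neither NT list had scores of 1 to 3 and comprised 22 in introns, 2 in CDS, 1 in a 3′ UTR and 2 in intergenic sequence. In the other direction, 195 of the 2617 positions in both NT lists (7.45%) were also in an IgG list. Those 195 were gathered at the top of the NT ranking. With positions ordered by their mean score rank in NT1 and NT2, 66.0% of the first 50 were in an IgG list, 34.0% of the next 50, 28 of 100 in ranks 101 to 200, 32 of 200 in ranks 201 to 400 and 0.983% of ranks 1601 to 2617. Absence from IgG was thus the usual state of weak NT sites. The position first by mean rank, in intergenic sequence on chromosome 18, scored 180 in NT1 (rank 5), 933 in NT2 (rank 1) and 13 in IgG2.

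**Figure D2:**
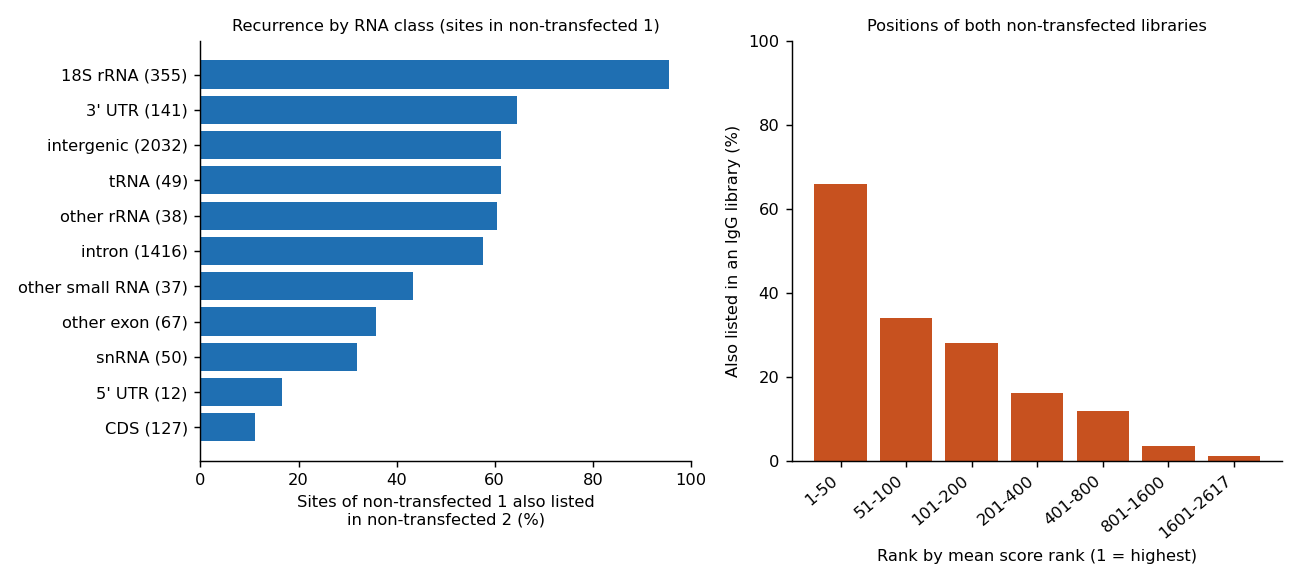
Left, share of NT1 sites (horizontal axis, %) that NT2 listed at the same nucleotide, by RNA class, with the number of NT1 sites in brackets. Right, share of the 2617 positions in both NT lists that an IgG list also held (vertical axis, %), by rank of the mean NT score rank, which falls from 66.0% in ranks 1 to 50 to 0.983% in the lowest.

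The 18S rRNA was less often shared with IgG than introns of the same rank. Among the first 100 ranks, 10 of 34 positions in 18S (29.4%) were in an IgG list against 24 of 37 intronic (64.9%) and 13 of 23 intergenic positions (56.5%). In ranks 51 to 100 the counts were 2 of 19 for 18S and 7 of 15 for introns. These positions lie next to one another in a few loci, so the counts carry no test.

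**Figure D3:**
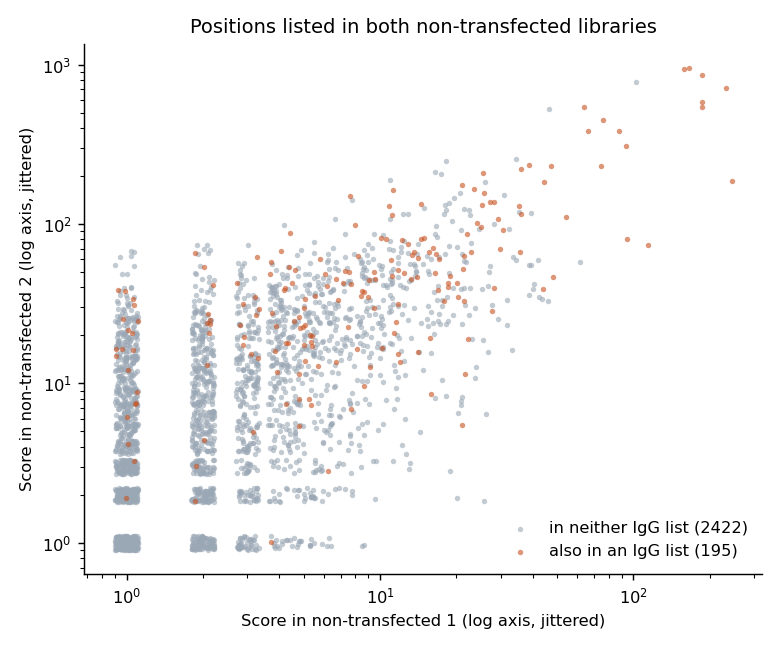
Score in NT1 (horizontal) against NT2 (vertical) for the 2617 positions in both NT lists, on log axes with small random offsets to separate equal scores. Orange points, the 195 positions also in an IgG list, crowd the upper right corner, and the 2422 grey members fill the rest.

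The 18S rRNA gave 316 members, 13.0% of all members and 41.1% of its 768 positions in either NT list. Their median score was 3 in NT1 and 21.5 in NT2. The sites fell on the copy at chr17:39846353-39848201, which is 1849 nucleotides long, and all 768 listed positions were on its plus strand, the sense strand. Reads from the repeated rDNA units cannot be told apart and are counted on this copy. The summed 18S score was 2543 in NT1, 20601 in NT2, 6 in IgG1 and 73 in IgG2, which is 15.5%, 30.1%, 28.6% and 16.8% of the listed score. Counted by score the NT and IgG shares thus overlapped as well.

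The listed 18S profile was broader in NT than in IgG, where the lists were also much shorter. The IgG score lay in few places, with 70 of the 73 counts of IgG2 and all 6 counts of IgG1 in nucleotides 801 to 1200. Outside that stretch, whose limits were drawn after the values were seen, lay 39.6% of the 18S score in NT1, 49.7% in NT2, 4.11% in IgG2 (3 of 73, interval 0.856 to 11.5%) and 0 in IgG1. In the first 800 nucleotides NT1 had 143 sites with 23.4% of its 18S score and NT2 had 284 sites with 23.1%, while both IgG lists had none (upper limit 4.93% for IgG2). Downstream of nucleotide 1200 the NT shares were 16.2% and 26.6%, and IgG2 had 3 sites of score 1 at nucleotides 1504, 1511 and 1513. The NT profiles were narrower in lists of equal length. When the NT lists of 18S sites were cut to their strongest 23, the number in IgG2, the share of score outside nucleotides 801 to 1200 was 14.4% in NT1 (7 of 23 sites) and 15.0% in NT2 (6 of 23), and the first 800 nucleotides kept 5 and 1 sites. Of these strongest 23, an IgG list held 9 in NT1 and 9 in NT2. Intervals on scores cover counting error only, and the IgG shares rest on 73 and 6 counts.

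**Figure D4:**
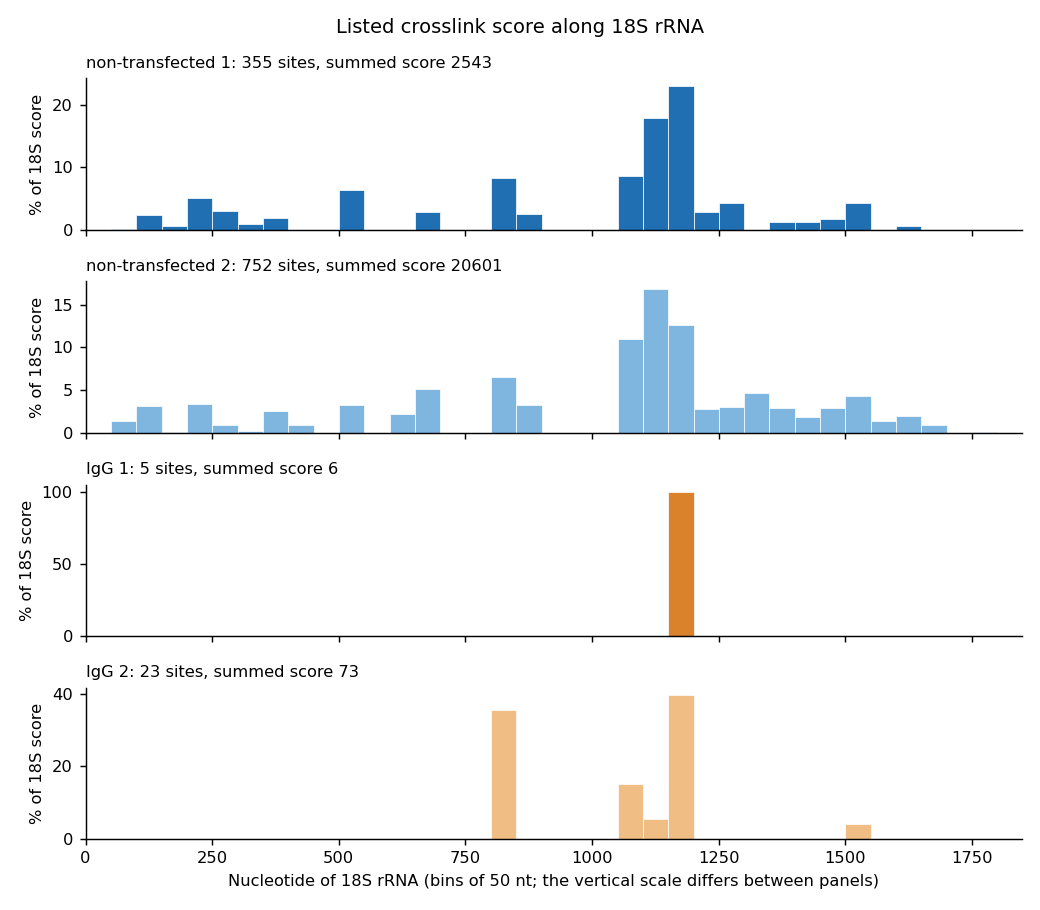
Share of each library's 18S score (vertical axis, %) in bins of 50 nucleotides along 18S rRNA (horizontal axis), with a different vertical scale in each panel. NT1 and NT2 carry score from the first 150 nucleotides to beyond nucleotide 1600, IgG1 in 1 bin, and IgG2 in 5 bins, led by nucleotides 1151 to 1200 (39.7%) and 801 to 850 (35.6%).

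The members were led by a run of cytidines at nucleotides 1123 to 1125, in the first window printed above. Nucleotide 1125 scored 103 in NT1 and 770 in NT2, nucleotide 1124 scored 48 and 522, and nucleotide 1123 scored 36 and 235. Together the 3 bases took 7.35% and 7.41% of the 18S score of the NT libraries, nearly the same share in both. Neither IgG library listed them, and at the NT shares nucleotide 1125 alone would have had a score of 2.96 or 2.73 in IgG2. Members are by definition absent from IgG, so these zeros are a description and not a test. All 14 nucleotides from 1117 to 1130 were members, with 11.2% of the 18S score in NT1 and 10.7% in NT2. Further leading members were the uridines at 1119 (19 and 172) and 1122 (20 and 108) and the cytidine at 1139 (21 and 112) in the same window.

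Leading members elsewhere on 18S were single bases. The guanosine at 1075 scored 18 in NT1 and 236 in NT2, and the uridine at 1255 scored 28 and 144. In the 3′ part of the molecule, the adenosine at 1493 scored 19 and 124 and the guanosine at 1514 scored 18 and 131. All these bases were picked by their mean rank in the 2 NT libraries, and single ranks could differ, as for 1075, whose rank was 129.5 in NT1 and 17 in NT2. The NT libraries differed at nucleotides 1301 to 1350, where NT2 had 36 sites with 4.62% of its 18S score and NT1 had none.

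Of the 24 IgG-listed 18S positions, the highest in IgG2 lay in the last 2 windows. The uridine at 829 scored 158 in NT1, 869 in NT2 and 21 in IgG2, which is 6.21%, 4.22% and 28.8% of the 18S score. For the cytidine at 1160 the scores were 201, 611, 1 in IgG1 and 15 in IgG2, or 7.90% and 2.97% of the NT score and 20.5% of the IgG2 score. The IgG2 intervals were 18.8 to 40.6% at 829 and 11.98 to 31.6% at 1160. These 2 bases were chosen as the highest of IgG2, in a list of 23 sites against 355 and 752, so their larger share there is a description and not a test. The adenosine at 1090 scored 71, 491 and 5 in IgG2, whose interval of 2.26 to 15.3% contained both NT shares (2.79% and 2.38%). The bases 1123 to 1125, between 829 and 1160 in position, were not listed there.

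tRNAs, the adaptors that DENR and MCTS1 are known to help release from post-termination 40S subunits, gave 30 members. That is 8.60% of the 349 tRNA positions in either NT list, against 27.2% over all classes. Nuclear tRNA genes held 42 NT1 sites in 23 genes and 252 NT2 sites in 66 of 408 annotated genes, and mitochondrial tRNA genes held 7 and 78. In nuclear tRNA genes 25 positions in 14 genes were members. The gene n-TScga2 (serine) scored 7 and 47 at its member, n-TVcac6 (valine) 8 and 28, n-TKctt28 (lysine) 13 and 16, n-TCgca18 (cysteine) 5 and 24, and n-TVaac3 (valine) 3 and 26, in NT1 and NT2. Nucleotides were counted from the 5′ end of the gene, which was set by the strand of the sites. Of the 25 members, 12 lay at nucleotides 32 to 37, around the anticodon, and 6 lay at nucleotides 57 to 58. Of these 6, the member in n-TIaat17 lay in a gene of 93 nucleotides, and the others in genes of 72 to 73. The 2 members in serine tRNA genes, which have a long variable arm, both lay at nucleotide 67. These ranges were picked after the positions were seen, and the share of all listed tRNA sites in them was not counted. Members of 1 gene can be neighbours, as at 34 and 35 in n-TEctc9, so the counts are a description only. All 74 nuclear tRNA genes with a site had sites on 1 strand only. Arginine tRNA genes illustrate the difference between the NT lists, with 48 NT2 sites carrying 18.2% of the nuclear tRNA score and no NT1 site. Near-identical tRNA genes share reads, so the gene named is 1 of several possible sources. Among mitochondrial tRNAs, mt-Tm (methionine) alone was listed by both libraries and held 5 members at nucleotides 17 to 31, with scores of 1 to 2 and 1 to 9.

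Other rRNA gave 23 members (12.2% of its 189 positions in either NT list), of which 14 were in the 5.8S gene n-R5-8s1 on chromosome 18. Those 14 spanned nucleotides 55 to 80 of 148, and the highest, at nucleotide 66, scored 12 in NT1 and 65 in NT2. The 16S mitochondrial rRNA mt-Rnr2 gave 6 members at nucleotides 561 to 577, with scores of 1 to 2 and 1 to 9, and the spacers of the pre-rRNA copy gave 3.

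Spliceosomal snRNAs, which pair with pre-mRNA in the nucleus, gave 16 members (14.7% of their 109 positions in either NT list). Genes resembling U6 held 44 NT1 and 30 NT2 sites in 16 genes and 10 members, and genes resembling U2 held 4 and 20 sites and 4 members. Rnu12, the U12 snRNA of the minor spliceosome, gave 2 members, at nucleotides 60 (3 and 5) and 63 (5 and 3). Genes resembling U5 and U1 had 11 and 7 sites in NT2 and none in NT1. The highest snRNA member, in Gm23924, scored 5 and 8. Among these families, U6-like genes were the ones in which NT1, the shorter list, had more sites than NT2. Copies of U6 share reads, and the assignment among them is uncertain.

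Other small RNAs gave 16 members (12.1% of their 132 positions in either NT list), 12 in Mir6236 and 4 in Gm23388, shown above. The class follows annotated position. Among rRNAs the Mir6236 stretch was compared with 18S alone (longest shared run 7 bases). An origin of its reads in another rRNA was not tested, so its class is uncertain. Gm23388 scored 33 in NT1 and 16 in NT2 at its leading nucleotide, and Mir6236 scored 19 and 7. Summed over the gene, Gm23388 scored 62 and 63 and Mir6236 scored 70 and 57. The abundant 7SK RNA (Rn7sk, 6 sites) and Y1 RNA (Rny1, 6 sites) were listed in NT2 only.

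Exons of protein-coding genes gave 92 members in 5 genes, 12.8% of the 717 CDS and UTR positions in either NT list. Sites were found in exons of 113 genes in NT1 and 203 in NT2, and the lists shared 9 genes, 7.96% of the first and 4.43% of the second. Among them were Fn1, Plec and Ulk2, in which the NT libraries listed different nucleotides, and the 5 genes with members. Lars2, the mitochondrial leucyl-tRNA synthetase, held 78 of the members, all in its 3′ UTR between 123461917 and 123462113 of chromosome 9, and Acvr2b, an activin receptor, held 10 in its CDS. The other 4 were 2 in the 5′ UTR of Ppip5k2 (summed scores 7 and 5), 1 in Washc1 (9 and 25) and 1 in Atf2 (2 and 3). Both main genes were also listed in IgG2, with 15 sites in Lars2 and 3 in Acvr2b. Lars2 took 2.77% of the listed score in NT1, 3.94% in NT2 and 4.84% in IgG2. Its sites are in mRNA by annotated position only, and the source of the reads is uncertain, as given below.

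The Lars2 stretch is not unique in sequence. It shares a run of 52 identical bases with the stretch of members in the non-coding gene Gm15564 and a run of 23 with that of AA474408, whereas the Acvr2b stretch shares no more than 7 with it. Windows around the leading member of Lars2 and of Gm15564 are printed with the members in capitals.
Lars2 3′ UTR, chr9:123462086-123462114, plus strand: GAAcgtgagctggGATTaGAccGtcgtGa
Gm15564 exon, chr16:35981731-35981759, minus strand: GgAAcgtgagCtggGTTtagaccgtcgtg
The leading member of Lars2 scored 20 in NT1 and 130 in NT2, and that of Gm15564 scored 5 and 61. Reads from one of these genes could be placed on the other, and values of Lars2, Gm15564 and AA474408 are uncertain for that reason. The rRNA classes held no copy of the long rRNA of the large ribosomal subunit. Among rRNAs these stretches were compared with 18S alone, with which Lars2 shared a run of at most 9 bases. An origin of the reads in another rRNA was not tested, so their count as mRNA or non-coding exon sites is uncertain.

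Without Lars2, the mRNA sites were spread thinly and differently in the 2 NT libraries. CDS held 71.3% of 178 exonic sites in NT1 and 46.4% of 392 in NT2, 5′ UTRs 6.74% and 5.36%, and 3′ UTRs 21.9% and 48.2%. Across the whole annotation, 307 of 21992 protein-coding genes (1.40%) had an NT site in CDS or UTRs and 5 had a member. Gene groups of interest for translation likewise had few sites and no members. Their counts also take in other exons, which the 307 leave out, so the 2 measures differ. The Rps12, Rpl7a and Eif5 sites given next were in other exons. Of 45 annotated 40S ribosomal protein genes 1 had an exonic site (Rps12, 2 sites in NT2), of 53 for the 60S subunit 1 (Rpl7a, 8 sites in NT2), and of 56 initiation factor genes 4 (Eif4e2, Eif4enif1, Eif4g2 and Eif5), none in both libraries. Denr itself had 4 CDS sites of score up to 2 in NT2 and none in NT1, and its partner Mcts1 and its relative Eif2d had none. Among 10 fibroblast structural genes 5 had exonic sites, with fibronectin (Fn1) in both NT libraries (4 and 6 sites) but at different nucleotides, and Actb (13), Col1a1 (4) and Col1a2 (9) in NT2 only. Nuclear long non-coding RNAs had sites in NT1 for Malat1 (2), Neat1 (1) and Gas5 (1) and in NT2 for Snhg8 (3), with no member among 21 genes. None of these lists had an exonic IgG site.

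Introns and intergenic sequence held 741 and 1166 members (27.2% and 31.6% of their NT positions), and most of them lay in a few short stretches. Windows of 2000 nucleotides with at least 10 sites in both NT lists numbered 73 outside rRNA loci, with a median span of 177 nucleotides from first to last site. They held 1825 of the 2422 members and 66.8% and 60.1% of the NT score. Since the windows were chosen on the NT lists, these shares describe the rule. IgG sites were not part of the rule, and 34 of the 73 windows held one.

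The windows with the highest summed NT score were in introns of Cdk8 and Cmss1, while an intergenic window on chromosome 3 had the most sites (170 and 303 in NT1 and NT2) and 138 members. Cdk8, a kinase of the Mediator complex, had 145 sites in NT1, 219 in NT2, 5 in IgG1 and 17 in IgG2 within 317 nucleotides (members at 146260988 to 146261304 of chromosome 5), and 119 members. Its share of the listed score was 8.07%, 6.03% and 8.06% in NT1, NT2 and IgG2. Cmss1 had 122, 184, 2 and 10 sites and 103 members, with 7.85%, 7.25% and 4.15% of the score. Gphn (gephyrin) held 42 intronic members and Il31ra, a cytokine receptor subunit, 37. Each of these genes was also listed in IgG2, with 7 sites in Gphn and 4 in Il31ra. The leading intronic member was in Spata5 (39 in NT1 and 109 in NT2), followed by Cdk8 (36 and 113) and Gphn (23 and 113).

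The IgG2 list could set few windows apart from NT by their share of score. The 95% exact interval of the IgG2 share reached the range of the 2 NT shares in 65 of 73 windows, among them windows with no IgG2 site and an upper limit above the NT shares, and it lay above both in 5 and below both in 3. Camk1d, a calcium-dependent kinase, was above, with 1.80% and 2.01% of the score in NT1 and NT2 and 8.29% in IgG2 (5.88 to 11.3%). Below both was Cmss1, together with an intergenic window at 109011673 to 109011998 of chromosome 11 (3.47% and 2.38% in NT, 0.461% in IgG2) and one at 3200765 to 3201569 of chromosome 6. The last had 83 sites in NT1, 153 in NT2 and none in IgG, with 1.17% and 1.59% of the NT score and an upper limit of 0.846% in IgG2. It was the strongest of the 39 windows without an IgG site, which together held 517 members. With 434 counts in IgG2, a window of the median NT score could not have been told from an absent one.

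**Figure D5:**
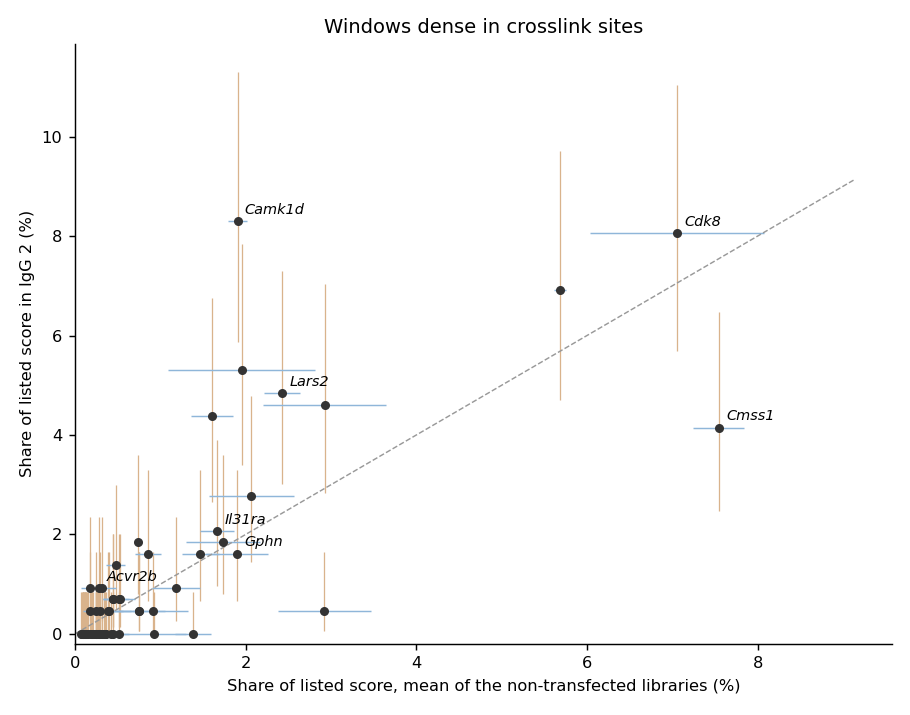
Share of listed score in 73 dense windows, mean of NT1 and NT2 (horizontal axis, %; bars reach the 2 libraries) against IgG2 (vertical axis, %; bars are 95% exact intervals covering counting error only), with equal shares on the dashed line. Camk1d stands above the line at 8.29%, and Cmss1 below it at 4.15%.

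Dense windows were chosen for sites in both NT lists, so a lower recurrence outside them is partly set by that rule. Outside rRNA loci and dense windows the NT libraries had less in common. Of 1284 NT1 and 2293 NT2 sites there, 258 positions were in both lists (20.1% of the NT1 sites), and none of the 258 was in an IgG list, which held 28 sites there, all in IgG2. They formed 157 loci when positions within 100 nucleotides were joined, 97 of them a single nucleotide, and comprised 149 intergenic, 52 intronic, 30 tRNA, 16 snRNA and 4 other small RNA positions, 3 in other exons and 4 in mRNA exons. Their median score was 2 in NT1 and 3 in NT2. Of the 258, 2 had an IgG site within 15 nucleotides, against 102 of the 316 members in 18S rRNA and 755 of all 2422 members (31.2%). The IgG lists held 24 positions within the 1849 nucleotides of 18S rRNA, and their 28 sites here were spread over the genome. Nearness depended on how densely IgG sites lay, so this contrast is a description only. The loci with most members were intergenic, with 7 members at 90395168 to 90395191 of chromosome 2 (summed scores 42 and 117) and 6 at 100471557 to 100471570 of chromosome 6 (43 and 102).

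The base at the site was known for positions in annotated transcripts, 834 in NT1, 1908 in NT2, 5 in IgG1 and 46 in IgG2. Uridine, the base that UV-C crosslinks most readily, was at 30.5%, 32.8% and 32.6% of the NT1, NT2 and IgG2 sites and at 2 of the 5 IgG1 sites (exact permutation p = 0.667, adjusted 0.778). In 18S rRNA it was at 27.3% and 24.5% of NT sites, where uridine makes up 21.9% of the molecule. In mRNA exons without Lars2 it was at 37.1% of NT1 and 45.4% of NT2 sites, above the 22.2% and 25.2% in the bases 20 to 50 nucleotides to either side. The nucleotide after the site was a uridine still more often, at 44.4% and 55.1%, whereas of the 14 members in this set 1 was at a uridine. The 3 leading 18S members are cytidines, and the 18S score of NT1 and NT2 was at uridine for 29.6% and 27.5% and at cytidine for 26.9% and 24.3%.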

How the data were processed

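The lists of called crosslink sites were used as deposited. Per the file headers, the authors called sites per library with iCount peaks (100 permutations, a 15-nt flank, FDR under 0.05, "regions separately"); the methods instead name the option RegionsAsOne. Reads had been mapped to mm10 (Bowtie in the methods, Bowtie2 in the labels) and collapsed by molecular identifier. The deposited score of a site is unscaled, and its sign was read as the strand, which was the gene's strand for 99.2% of 533 positions in protein-coding exons.

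Positions were assigned to 1 class each with GENCODE M21 and, for nuclear tRNAs, the RefSeq GRCm38.p6 table (no strand). Shares were compared by two-sided exact permutation tests (scipy 1.17.1; Python 3.11.15, pandas 2.3.3), adjusted over 14 tests, with exact Clopper-Pearson 95% intervals. The functions were tested on simulated data. snRNA families were assigned by shared 11-base words. Windows, lists and members were chosen with earlier results of these data known. Genes and positions were named by mean score rank within each class (10 in 18S rRNA and in mRNA, 5 in the others), by member counts per gene, or from the gene lists. Other loci, windows and stretches named were chosen after their values were seen. Some genes are not reported here. Alternatives were a score of at least 5, merging within 15 nt, weighting by score, lists of equal length, leaving out dense windows or each library, sense-strand rRNA, wider matching and the replicate block.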

Additional observations from a re-analysis of the deposited data

How the results depend on the processing

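Differences below are NT minus IgG means, in percentage points of sites. The share of sites in 18S rRNA was -8.73 as reported, but 0.12 when sites were weighted by score and 13.3 in lists of equal length, so its direction depends on these choices, and it was -0.49 without IgG1 and -16.98 without IgG2. The 3′ UTR share, 0.58 as reported, was -2.83 without IgG1 and -0.16 without NT2. Lists of equal length also turned intergenic sequence from 6.50 to -7.10, CDS from 1.67 to -1.07 and other exons from 1.496 to -0.21, and left snRNA and 5′ UTRs at 0. Merging sites within 15 nt turned intergenic sequence to -9.84, and leaving out dense windows turned introns from -8.61 to 1.88. Reading the nucleotide after the site turned the uridine share from -4.67 to 0.50. Leaving aside mitochondrial mRNA, which held no site, 74 of the 89 alternatives that kept all libraries were counted as unchanged. The values of the others are given here. The 74 include both replicate pairings, which cannot change a difference of means, and sense-strand rRNA, which changed no value. Member counts and the 18S score outside nucleotides 801 to 1200 were judged by size and not by direction. The difference in 18S score outside nucleotides 801 to 1200 fell from 42.6 to 12.6 percentage points in 18S lists of equal length, an alternative added after seeing the data. No p-value could fall below 0.333 in any of them. Why these directions changed was not tested. The 2422 members became 4261 and 4168 when positions within 5 and 15 nt counted as shared, 481 with a score of at least 5 in both NT lists, and 258 without rRNA loci and dense windows. Leaving out 1 library at a time gave 2432 to 6969, the highest without NT1, and 4126 without NT2, since 1 NT list then sufficed. Without NT1 or NT2, and without IgG1 or IgG2, the difference in log10 sites ranged from 1.38 to 2.47. A score of at least 5 left no site in IgG1, so it gave no difference between groups.

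With the replicate block (exact sign-flip test over 2 pairs, smallest p 0.5) each difference was the same as without it, 1.92 for log10 sites with p = 0.5. Nothing in the labels says that the numbers pair the libraries, and same-numbered libraries deviated together with r = -0.31 over 12 class shares and 0.55 over 73 dense windows. The crossed pairing, added after seeing the data, gave 1.92 with p = 0.5 in the same exact test, and neither pairing called any result.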
